A study of Mus musculus with 4 samples.

Results

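The transcripts described here encode the G1 cyclins Ccnd1, Ccnd2, Ccnd3, Ccne1 and Ccne2, their catalytic partners Cdk2, Cdk4 and Cdk6, and the retinoblastoma family proteins Rb1 and Rbl1. The members were every probe set that the platform annotation assigned to exactly 1 gene symbol from these 10 names. They came to 30 of the 45101 probe sets on the array and to 10 of the 18193 genes with such a probe set, and the rule reads symbols only. Each gene is represented by its brightest probe set unless another is named. All 10 genes and 24 of the 30 probe sets passed the filter on dim signals described below. The samples were mouse embryonic stem (ES) cells of the line CGR8 on gelatin, in medium with serum replacement and beta-mercaptoethanol. The 2 control arrays held RNA of cells kept in LIF, the leukemia inhibitory factor, at 1000 U/ml, and the 2 other arrays held RNA of cells in the same medium lacking it, both for 2 days. A single cell line was used, no further genetic or drug treatment is named, and whether the arrays within a group are separate cultures is not given in the sources used here. The p-values therefore reflect only how far these arrays scatter, and that scatter may be technical.

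In G1, D-type cyclins bind Cdk4 or Cdk6 and E-type cyclins bind Cdk2, and the active kinases phosphorylate the RB family proteins. Unphosphorylated RB proteins hold E2F transcription factors in check, and phosphorylation releases E2F to drive genes of DNA replication. Mouse ES cells are known for a short G1 phase and high cyclin E with Cdk2 activity, and their cell cycle lengthens as they differentiate. These roles are background and not results of the present data.

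Values are MAS5 signals, a summary of the probes of a probe set on a linear scale, and differences are log2 signal without LIF minus log2 signal with LIF. Probe sets were tested when their mean log2 signal was above 4.51, which is a signal of 22.9. Control probe sets separated the arrays by the number in their labels. The 18S ribosomal RNA signal was 462 and 451 for number 1, against 5150.4 and 2990.4 for number 2, and the ratio of 3' to 5' Actb signal was 1.32 and 1.44 against 1.83 and 1.77 (with LIF first in each pair). Each member is therefore given on all 4 arrays, with its difference in each number, and with the adjusted p of a fit that holds the number as a block. The choice of that fit as a companion was made after the values had been seen. The LIF response genes Socs3 and Klf4 followed the labels, with log2 differences of -4.16 and -3.84 (limma adjusted p = 0.0046 and 0.010). ES cell markers were present in both groups, with Pou5f1 signals from 7212 to 10632 over the 4 arrays. The summed signal of 10 ES cell markers was 110424 and 130492 with LIF, against 66362 and 94171 without it. That of 15 primitive endoderm markers was 5428 and 12609 with LIF, against 8071 and 26731 without it, and all 15 were higher on array 2 than on array 1 in both groups. That of 9 fibroblast markers was 1595 and 628 with LIF, against 2605 and 1069.8 without it, and 6 of the 9 were lower on array 2 in both groups. For 5 epiblast markers the sum was 10467 and 7818 with LIF, against 21669 and 24955 without it, and 4 of the 5 rose with the array number in the fit. No marker of these lists read 0. In such bulk samples fewer cells of a type and less RNA per cell cannot be told apart.

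Without LIF, the D-type cyclin transcript Ccnd2 and the tumour suppressor transcript Rb1 had higher signals, and the cyclin transcripts Ccnd3 and Ccne1 had lower signals. These 4 members passed the limma test when the array number was in the fit, 2 higher and 2 lower, and 4.13% and 2.62% of the 14445 tested genes passed in these directions. With group as the only term 0 of the 10 members passed at an adjusted p of 0.05, and 0.145% of all tested genes did. At an unadjusted p of 0.05 or less there were 3 members in that fit, Ccnd3, Ccne1 and Rb1, a share to be read against 10.9% of all tested genes. The fit without a mean-variance trend also called 0 members. For 6 members the groups had no overlap. Ccnd1, Cdk4 and Rb1 lay higher without LIF and Ccnd3, Ccne1 and Cdk2 lower, against 27.3% and 15.2% of all tested genes in the respective directions. An exact permutation test of 2 arrays against 2 cannot give a two-sided p below 0.333, so none is reported. The median difference of the members was 0.02, and that of all tested genes was 0.09. Another scaling moved the median of all tested genes to 0.02 (quantile normalization) or to -0.05 (a common median of the tested genes). Under both scalings the 5 members above 0 and the 5 below 0 kept their sign.

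**Figure D1:**
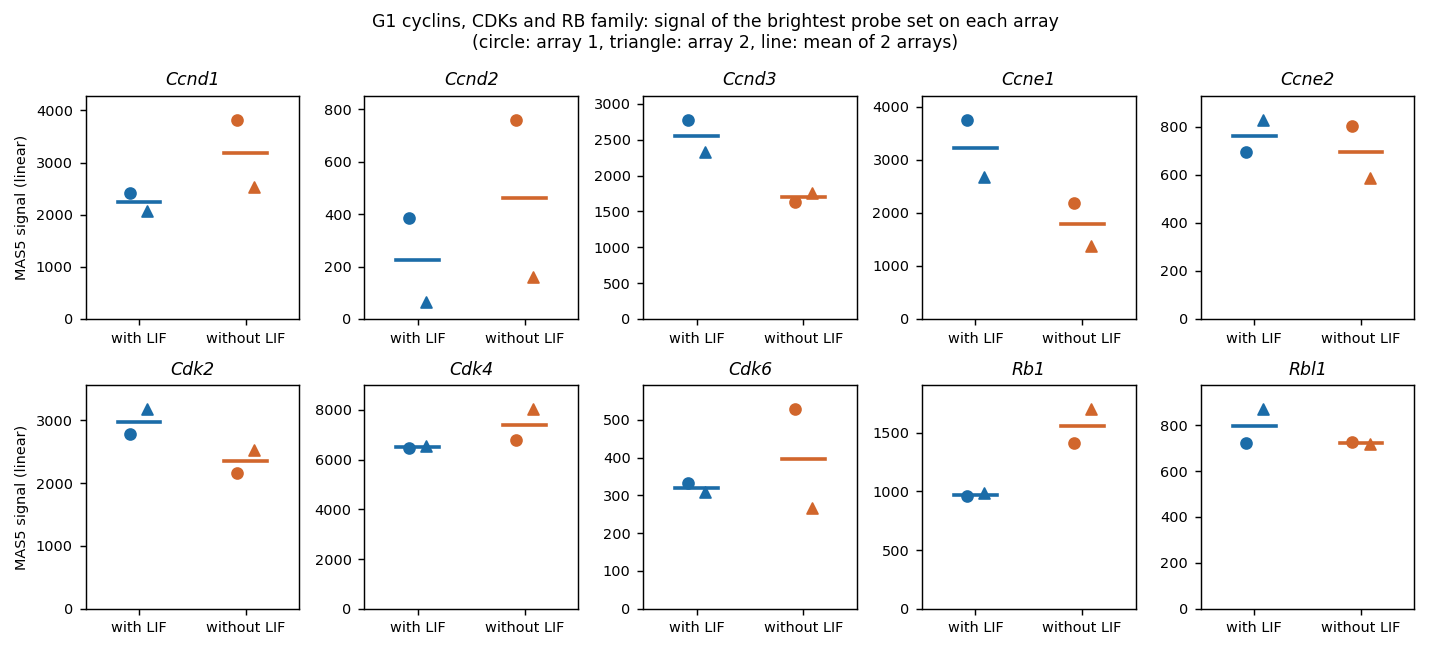
MAS5 signal (linear axis from 0) of the brightest probe set of each of the 10 members on the 4 arrays, with blue for arrays with LIF and orange for arrays without it, circles for arrays numbered 1, triangles for those numbered 2 and bars for the mean of 2 arrays. Ccnd3, Ccne1 and Cdk2 lie lower on both arrays without LIF, Ccnd1, Cdk4 and Rb1 lie higher on both, and the circles and triangles of Ccnd2 are far apart in each group.

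Among the D-type cyclins, which couple growth signals to Cdk4 and Cdk6, Ccnd1 and Ccnd2 had differences above 0 and Ccnd3 had one below 0. Ccnd2 read 384.5 and 65.6 on arrays 1 and 2 with LIF and 761 and 160.1 on arrays 1 and 2 without LIF. The signal without LIF was higher within each number, but the groups overlapped, since array 1 with LIF read above array 2 without LIF. The log2 difference was 1.14 (2.20-fold, SE 0.95, limma adjusted p = 0.73), being 0.98 between the arrays 1 and 1.29 between the arrays 2. With the number in the fit the SE was 0.26 and Ccnd2 rose at an adjusted p of 0.024. Leaving out array 2 with LIF gave a difference of -0.14, and dropping array 1 without LIF gave 0.01. Leaving out array 1 with LIF gave 2.41, and dropping array 2 without LIF gave 2.26. Any such omission makes the numbers unequal between the groups. The fibroblast sum given above was ordered over the 4 arrays as Ccnd2 was, and 5 of the 9 fibroblast markers were higher without LIF within both numbers. Acta2 was the largest part of that sum, at 905.3 and 244 with LIF, against 1628.6 and 540.5 without it. Acta2, Col1a2 and Col3a1 had the order of Ccnd2, and Dcn, Thy1, Pdgfrb, Col1a1, Postn and Lum did not. The neuroectoderm markers Nes and Pax6, picked out after their values were seen, had that order too. Stmn2, Tubb3, Sox1, Neurod1, Zic1 and Pax3 of the same list did not. Within both numbers 5 of the 8 measured markers of that list were higher without LIF, while Stmn2 and Tubb3 were lower. Stmn2 read 3935.1 and 6258.9 with LIF, against 1729.3 and 2293.3 without it. The sum of that list did not have the order either, at 6435 and 7867 with LIF, against 5269.7 and 5091.7 without it. The median signal of all probe sets without controls had the order of Ccnd2 as well, at 69.9 and 59.6 with LIF, against 95.5 and 65.5 without it. The part of either kind of cell, or of such a shift between arrays, in the Ccnd2 signal was not tested.

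Ccnd2 had the most probe sets of any member, and they allow the same comparison to be read repeatedly on the same RNA. All 7 read higher without LIF in both array numbers. Of these 6 passed the filter, with differences from 0.52 to 1.83, and 4 of them rose in the fit over all probe sets with the number as a block (1416122_at, 1434745_at, 1430127_a_at and 1455956_x_at, with adjusted p of 0.023, 0.024, 0.0071 and 0.0085). In that fit 3.16% of 26405 tested probe sets rose and 2.19% fell, and with group alone 0% passed, among them 0 of the 24 of the members. The 2 others that were tested, 1448229_s_at and 1416124_at, differed by 0.52 and 0.84 without passing (block-adjusted p = 0.60 and 0.51). The probe set 1434745_at read 219.8 and 100.6 with LIF, against 452.4 and 239.5 without it, and its groups did not overlap. The seventh, 1416123_at, lay below the filter and read 12.8 and 11.1 with LIF, against 47.8 and 25.5 without it. The suffix of 1455956_x_at, which had the largest difference of the 6 tested, marks probes that can match other sequences. The 7 share a transcript and the same 4 RNA samples, so their shared direction is not replication.

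**Figure D2:**
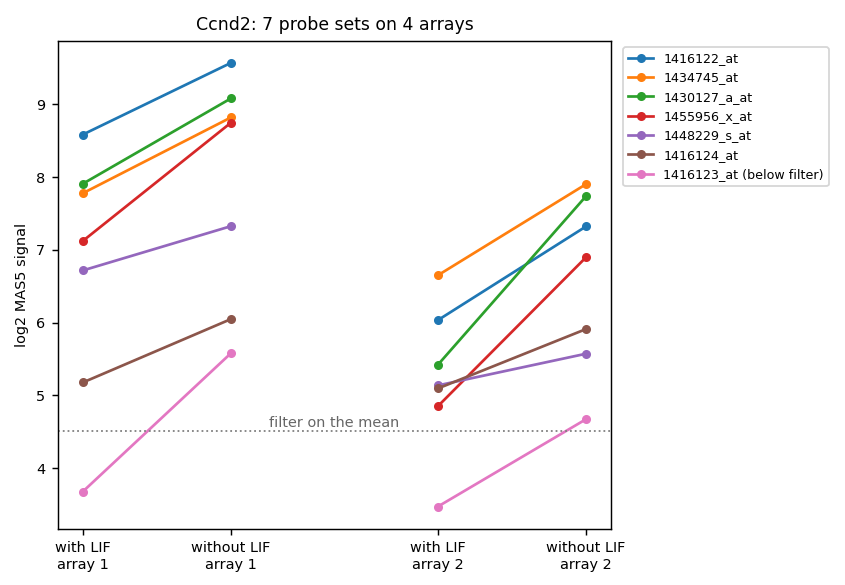
Log2 MAS5 signal of the 7 Ccnd2 probe sets, with the arrays numbered 1 on the left and those numbered 2 on the right, and with LIF joined to without LIF by a line within each number. All 14 lines rise from left to right, and the array 2 points of 6 tested probe sets lie below their array 1 points in the same group.

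Ccnd1, the D-type cyclin best known as a target of mitogen signalling, read 2417.6 and 2080.7 with LIF, against 3825.9 and 2535.4 without it. Both arrays without LIF lay above both with LIF. Between the groups the log2 difference was 0.47 (1.39-fold, SE 0.24, limma adjusted p = 0.53), at 0.66 within arrays 1 and 0.29 within arrays 2. Omitting array 1 of the cells lacking LIF gave 0.18, and omitting their array 2 gave 0.77. It did not pass with the number in the fit either (adjusted p = 0.081), and the 95% interval of the fold without the block ran from 0.941 to 2.05. A further probe set, 1448698_at, read 1252.6 and 1207.9 with LIF, against 1590.7 and 1596.6 without it, and its groups did not overlap either. The remaining probe set, 1417419_at, read 1619.9 and 459.6 with LIF, against 1920.6 and 453.6 without it. There array 2 minus array 1 came to -1.82 with LIF and -2.08 without it in log2 units, and the difference between the groups was 0.11.

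Ccnd3 read 2781.5 and 2335.3 with LIF, against 1630.1 and 1759.5 without it, opposite in direction to Ccnd1 and Ccnd2. Both arrays without LIF lay below both with LIF. Its log2 difference was -0.59 (1.505-fold lower, SE 0.19, limma adjusted p = 0.31), or -0.77 for arrays 1 and -0.41 for arrays 2, and Ccnd3 fell with the number in the fit (adjusted p = 0.038). The mean signal was 2558 ± 316 with LIF and 1695 ± 91.5 in its absence (SD, n = 2). With the block and quantile normalization together it no longer passed. Its 2 other probe sets were dim, with signals from 12 to 83.5 over the 4 arrays, and changed sign between the numbers.

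The E-type cyclins activate Cdk2 at entry into S phase. Ccne1 read 3758.5 and 2681.7 with LIF, against 2178.9 and 1383.9 without it. Both arrays without LIF lay below both with LIF. On the log2 scale the difference was -0.87 (1.83-fold lower, SE 0.28, limma adjusted p = 0.31), being -0.79 for number 1 and -0.95 for number 2, and Ccne1 fell with the number in the fit (adjusted p = 0.0034, the lowest of the 10 members). Mean signals were 3220.1 ± 761 with LIF and 1781 ± 562 in its absence (SD, n = 2). Without the block it ranged from -1.20 on omitting array 1 of the cells lacking LIF (adjusted p = 0.028) to -0.54 on omitting their array 2 (adjusted p = 0.35). In both fits the lone array without LIF is assumed to vary like those with LIF. These values come from 1441910_x_at, whose suffix marks probes that can match other sequences. The plain probe set 1416492_at read 2327.4 and 1984.4 with LIF, against 1688.7 and 1596.7 without it, a difference of -0.39 that did not pass in either fit over all probe sets (adjusted p = 0.69, and 0.17 with the block). Both probe sets were lower in the 2 arrays without LIF, and the size of the difference depended on which was read.

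The promoter of Ccne1 is shown because this member had the lowest adjusted p with the array number in the fit. The window runs from 250 bases before to 50 after the annotated start, on the minus strand at chr7:38107441-38107740 of GRCm38.p6 (RefSeq), and 76% of its bases are G or C. The RefSeq table held windows for 6 of the 10 members, and Ccnd1, Ccnd2, Ccne2 and Rb1 were among the names without an entry. Windows were searched on both strands for the E2F-like motifs TTTCGCGC and TTTGGCGC, the STAT-like motif TTCNNNGAA and the E-box CACGTG, and capitals mark matches. Of all 32851 windows in the table, 0.323%, 0.514%, 8.3% and 7.15% held these motifs. The Ccne1 window, like both Ccnd3 windows and the Cdk2 window, held 0 matches. Only exact E2F-like sequences that are rare over all windows were searched, so 0 matches does not show that a promoter lacks E2F sites.
Ccne1: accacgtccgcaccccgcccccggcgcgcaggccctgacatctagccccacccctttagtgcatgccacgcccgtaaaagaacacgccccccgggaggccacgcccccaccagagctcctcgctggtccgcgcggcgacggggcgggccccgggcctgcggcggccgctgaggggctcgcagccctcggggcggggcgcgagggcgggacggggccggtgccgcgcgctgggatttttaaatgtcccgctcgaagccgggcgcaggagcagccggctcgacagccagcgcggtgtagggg

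Ccne2, the other E-type cyclin, read 694.7 and 829 with LIF, against 803.6 and 587 without it. The groups overlapped, and array 2 without LIF was the lowest of the 4. This gave a log2 difference of -0.14 (SE 0.24, limma adjusted p = 0.88), at 0.21 within arrays 1 and -0.50 within arrays 2, so the arrays did not share a direction. The 95% interval of the fold was 0.606 to 1.35, and a difference within these bounds could not be resolved with 4 arrays.

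Of the kinases, Cdk2 is the partner of the E-type cyclins. It read 2784.1 and 3174.9 with LIF, against 2156.8 and 2533.5 without it, and both arrays without LIF lay below both with LIF. The log2 difference was -0.35 (1.27-fold lower, SE 0.18, limma adjusted p = 0.56, and 0.16 with the block), and it was nearly equal within the numbers at -0.37 and -0.33. Its other probe set, 1447617_at, read from 0.5 to 4.6 and lay below the filter.

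Cdk4, a partner of the D-type cyclins, read 6481 and 6545.5 with LIF, against 6777.7 and 8025.3 without it. The groups did not overlap, by a margin that was small beside the spread of the 2 arrays without LIF. Between the groups the log2 difference was 0.18 (SE 0.17, limma adjusted p = 0.76, and 0.44 with the block), and the 95% interval of the fold was 0.857 to 1.496. The difference was 0.065 within arrays 1 and 0.29 within arrays 2. All 3 Cdk4 probe sets were higher without LIF within both numbers, and their differences between the groups were from 0.12 to 0.18. The signals above are those of 1422441_x_at, whose suffix marks probes that can match other sequences. In the plain probe set 1422440_at the groups overlapped, at 5063.6 and 6035.1 with LIF, against 5540.7 and 6753.8 without it. The Cdk4 promoter window is shown for its 4 E-boxes, which start 172, 118, 98 and 11 bases before the annotated start, on the plus strand at chr10:127063285-127063584 of GRCm38.p6 (RefSeq). An E-box is the sequence that MYC with MAX can bind, and the match says nothing of binding in these cells. Among the 7 member windows the only other with an E-box was that of Cdk6, with 1.
Cdk4: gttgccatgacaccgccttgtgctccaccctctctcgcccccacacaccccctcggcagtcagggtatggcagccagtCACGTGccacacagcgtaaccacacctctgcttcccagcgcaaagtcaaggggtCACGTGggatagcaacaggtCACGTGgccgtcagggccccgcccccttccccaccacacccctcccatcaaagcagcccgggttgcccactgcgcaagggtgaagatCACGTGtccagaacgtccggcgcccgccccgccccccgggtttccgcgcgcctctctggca

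Cdk6, the other D-type cyclin kinase, read 332 and 308.2 with LIF, against 527.6 and 265.5 without it. The arrays without LIF were the highest and the lowest of the 4. Its log2 difference was 0.23 (SE 0.36, limma adjusted p = 0.86, and 0.67 with the block). That difference was 0.67 for arrays 1 and -0.22 for arrays 2. The probe set 1455287_at read 359.1 and 99.8 with LIF, against 626.7 and 124.6 without it, higher without LIF within both numbers but far lower on the arrays numbered 2. It did not pass with the block (adjusted p = 0.29), and the third probe set, 1460291_at, stayed between 16.3 and 22.5 and below the filter.

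Rb1, which binds E2F and restrains entry into S phase, read 958.5 and 985.3 with LIF, against 1410.4 and 1700.4 without it. Both arrays without LIF lay well above both with LIF, and the arrays with LIF were close to each other. On the log2 scale the difference was 0.67 (1.59-fold, SE 0.20, limma adjusted p = 0.27), being 0.56 for number 1 and 0.79 for number 2, and Rb1 rose with the number in the fit (adjusted p = 0.027). The mean signal was 972 ± 19.0 with LIF and 1555 ± 205 without LIF (SD, n = 2). Without the block the difference stayed between 0.54 and 0.81 when each array was left out. The other Rb1 probe set, 1444400_at, read from 1.6 to 13.2, below the filter.

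Rbl1 encodes p107, the RB relative that mainly binds the repressive E2F proteins. It read 722.5 and 869.4 with LIF, against 725.1 and 717.8 without it. Array 1 of each group had nearly the same signal, and only array 2 with LIF stood higher. This gave a log2 difference of -0.14 (SE 0.21, limma adjusted p = 0.86), at 0.01 within arrays 1 and -0.28 within arrays 2, and the 95% interval of the fold was 0.644 to 1.29. The probe set 1425166_at gave -0.07. Of the 2 dim probe sets, 1432604_at read 5.1 and 5.8 with LIF, against 43.8 and 19.8 without it, with non-overlapping groups, but its mean lay below the filter and it was not tested. The Rbl1 window is shown because it was the only member window with an E2F-like match, TTTCGCGC at 18 bases before the annotated start, on the minus strand at chr2:157204485-157204784 of GRCm38.p6 (RefSeq).
Rbl1: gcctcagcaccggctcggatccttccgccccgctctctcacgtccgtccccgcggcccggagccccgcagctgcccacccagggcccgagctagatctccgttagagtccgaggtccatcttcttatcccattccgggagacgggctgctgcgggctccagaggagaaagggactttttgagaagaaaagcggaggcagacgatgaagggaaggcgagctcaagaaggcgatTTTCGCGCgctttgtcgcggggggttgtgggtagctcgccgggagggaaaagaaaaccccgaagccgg

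Read over probe sets rather than genes, 13 of the 24 tested probe sets of the members were higher without LIF within both numbers and 4 were lower, against 38.6% and 24.4% of all tested probe sets. Of the 13, Ccnd2 supplied 6, Cdk4 3, Ccnd1 2 and Cdk6 and Rb1 1 each, and the 4 belonged to Ccne1, Ccnd3 and Cdk2. Groups did not overlap for 7 probe sets that were higher and 4 that were lower, against 24.5% and 14.1% of all tested probe sets. With the block 5 rose, the 4 of Ccnd2 and that of Rb1, and 2 fell, those of Ccne1 and Ccnd3. At an unadjusted p of 0.05 or less with group alone there were 3 of 24, against 7.72% of all. In both groups 12 of the 24 probe sets were lower on array 2 than on array 1, among them all 6 of Ccnd2 and both tested ones of Cdk6. For Ccnd2 the median of that log2 difference was -1.93 with LIF and -1.55 without it, and the median difference between the groups was 1.14.

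**Figure D3:**
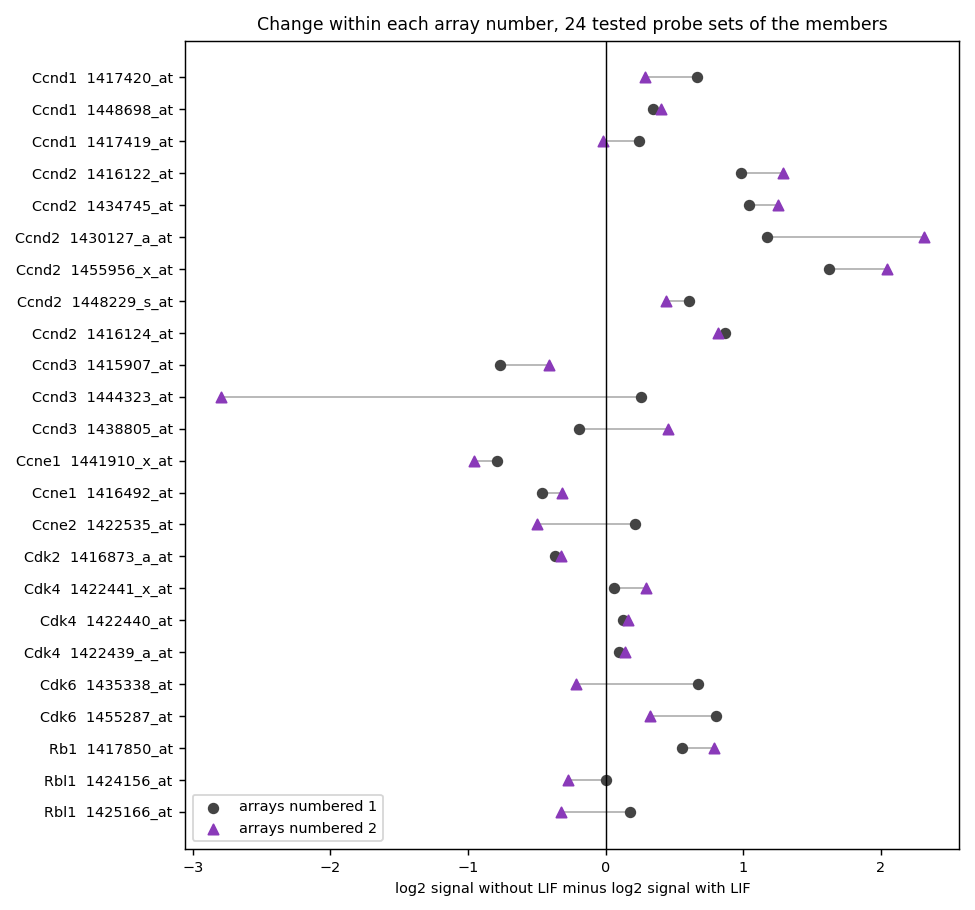
Log2 signal without LIF minus with LIF for the 24 tested probe sets of the members, with a circle for the arrays numbered 1 and a triangle for those numbered 2, joined by a line. Both symbols lie to the right of 0 for all 6 Ccnd2 probe sets, for the 3 of Cdk4 and for Rb1. The same holds for 1417420_at and 1448698_at of Ccnd1 and for 1455287_at of Cdk6. Both lie to the left for both probe sets of Ccne1, for Cdk2 and for the bright Ccnd3 probe set 1415907_at. Those of Ccne2, Rbl1, 1417419_at of Ccnd1, 1435338_at of Cdk6 and the dim Ccnd3 probe sets fall on opposite sides or near 0.

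The proteins around the G1 kinases were read from 6 lists. In the fit with group alone 0 genes of any list passed, and the calls below are those with the array number as a block, to be read against the same 4.13% higher and 2.62% lower. Of 7 CDK inhibitors, which bind and block these kinases, 2 rose and 0 fell, and 6 of 7 had a difference above 0, with a list median of 0.81. Over all tested genes 8578 of 14445 differences were above 0. With the block and quantile normalization together 1 of the 7 passed. Cdkn1c, which encodes p57, read 147.4 and 81.7 with LIF, against 282.8 and 314.8 without it (log2 difference 1.44, adjusted p = 0.023 with the block). Cdkn1a, which encodes p21, read 856.4 and 702.1 with LIF, against 1341 and 2655.8 without it (1.28, adjusted p = 0.011 with the block). Its highest signal was on array 2 without LIF, which also had the highest primitive endoderm sum. Its lowest signal was on array 2 with LIF, where that sum was 12609, above the 8071 of array 1 without LIF. Cdkn1a thus did not have the order of that sum over the 4 arrays, and the part of those cells was not tested. The median of the inhibitors stayed at 0.63 with quantile normalization and 0.67 with a common median.

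The list of E2F target genes of DNA replication, which also holds the transcription factor gene Mybl2, had 17 tested genes. Of these 3 fell and 0 rose. All 17 had a difference below 0 in the main scaling, with quantile normalization and with a common median. The list median was -0.25, and over all tested genes 5867 of 14445 differences were below 0. For 15 of the 17 the difference had the same sign in both array numbers, against 9393 of the 14445. Mcm7 and Cdc45 were at 0.0025 and 0.0065 within the arrays numbered 2. Mybl2, an E2F-driven transcription factor, read 4188.1 and 3341.5 with LIF, against 1773.4 and 1869.8 without it (log2 difference -1.04, adjusted p = 0.0018 with the block). Orc1, a subunit of the origin recognition complex, had a difference of -0.62 and Tk1, thymidine kinase, of -0.58 (adjusted p = 0.023 and 0.045 with the block). Adding quantile normalization to the block left 2 calls in this list. The Mcm helicase genes Mcm2 to Mcm7 had differences from -0.28 to -0.14, and none passed in either fit.

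Of 11 E2F factors and partners 1 rose and 1 fell, and the list median was 0.10 (-0.03 with a common median). E2f2, an activating E2F, read 271.7 and 219.7 with LIF, against 84.7 and 85.6 without it (log2 difference -1.52, adjusted p = 0.017 with the block). Tfdp2, a dimer partner of E2F proteins, read 1297.8 and 1180.9 with LIF, against 1924 and 1983.6 without it (0.66, adjusted p = 0.023 with the block). Rbl2, the third RB family gene, had a difference of 0.19 with overlapping groups. Of 8 genes of cyclin E and CDK inhibitor turnover 1 fell, Fbxo5, an inhibitor of the anaphase-promoting complex (-0.49, adjusted p = 0.047 with the block), and with quantile normalization added no gene of this list passed. No gene passed among the 8 CDK-activating kinase and phosphatase genes, where Cdc25c and Ccnh had differences of -0.33 and -0.28, or among the 3 tested S and M phase genes, where Ccna2 and Ccnb2 had -0.23 and -0.18. All of these lists rest on the same 4 RNA samples as the members.

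**Figure D4:**
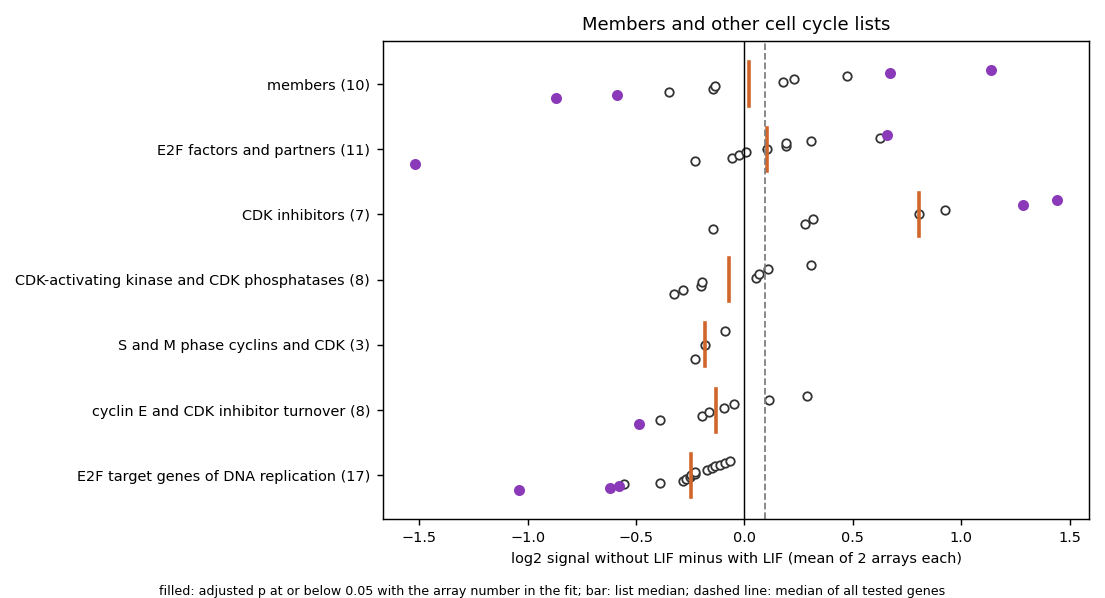
Log2 difference, without LIF minus with LIF, of each tested gene in the members and in 6 other cell cycle lists, with the number of genes in brackets, filled points for an adjusted p at or below 0.05 with the array number in the fit, orange bars for list medians and a dashed line for the median of all tested genes (0.09). All 17 genes of the E2F target list, Mybl2 among them, lie left of 0. Of the CDK inhibitors 6 of 7 lie right of it, and the members spread to both sides from -0.87 to 1.14.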

How the data were processed

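The deposited table held MAS5 signal intensities on a linear scale, 1 column per array, per the submitters' processing notes, and the mean without the extreme 2% at each end was 500.003 to 500.004 on every array, as computed here. MAS5 scales arrays to a common mean and does not align dim signals. The version of MAS5 and a genome build are not given in the sources used here. The labels state no depth, and 4 arrays limit the precision.

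The single value at or below 0 was raised to 0.1, the smallest positive value, and signals were taken to log2. Of 45101 probe sets 64 controls, 932 with several symbols and 9160 with none were set aside, which left 34945 for 18193 genes. Each gene was read from its brightest probe set, and 14445 genes and 26405 probe sets lay above the 30th percentile of mean log2 signal. For each difference limma 3.58.1 was run under R 4.3.3 (eBayes with a mean-variance trend, 2 residual degrees of freedom, or 1 with the array number as a block, two-sided) and adjusted by Benjamini-Hochberg over all tested genes or probe sets. Means ± SD are of linear signals.

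Members, lists and alternatives were chosen with earlier results of these data known. The text names all members, and of each list the genes that passed with or without the block (at most 4), or else the 2 with the smallest p, with Rbl2 and the Mcm genes added after their values were seen. Symbols are those of the platform annotation, and all that matched an Entrez identifier in RefSeq (34741) kept their name. Of the fixed list genes, Ccnb1 lacked a single-symbol probe set, Ccna1 lay below the filter, and Skp1 was listed under 2 names. Figures were drawn with matplotlib 3.10.9.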

Additional observations from a re-analysis of the deposited data

How the results depend on the processing

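The count of members that passed was 0 with group alone and stayed 0 without a filter, with a filter at the 50th percentile, with a pseudocount at the 20th percentile, with quantile normalization, a common median, no trend, robust estimation, probe sets averaged by gene, only plain probe sets where a gene has one, a threshold of 0.1 and a test over all single-symbol probe sets. With the replicate block it was 4, and 3 with the block and quantile normalization together (Ccnd2, Ccne1 and Rb1), an alternative chosen after seeing the data. It ranged from 0 to 1 when each array was left out, with Ccne1 passing without array 1 of the cells lacking LIF. The block could not be combined with leaving out an array, since no residual degrees of freedom remain. Deviations of the arrays numbered 2 from those numbered 1 correlated between the groups at r = 0.29 over the tested genes, which are not independent, and with 2 arrays a group this does not show that the numbers pair samples. Over all tested genes 21 passed with group alone, 10 with quantile normalization, 0 without the trend, 7 to 496 with an array left out, 720 with the block and quantile normalization and 975 with the block.

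The median difference of the members was 0.02. It was -0.12 with a common median, 0.31 with the mean of probe sets and -0.25 within the arrays numbered 2. With plain probe sets it was 0.15 over 9 members, since the plain probe set of Cdk2 lay below the filter. It ranged from -0.19 to 0.070 with an array left out. The mean of probe sets turned Cdk2 to 0.41 and Rbl1 to 0.89, since it takes in their probe sets below the filter. Within the arrays numbered 1 Ccne2 was 0.21 and Rbl1 0.0052, and within those numbered 2 Cdk6 was -0.22. With an array left out Ccnd1 ranged from 0.18 to 0.77, Ccne1 from -1.20 to -0.54, Cdk2 from -0.46 to -0.23, Cdk4 from 0.057 to 0.30, Ccnd2 from -0.14 to 2.41, Ccne2 from -0.37 to 0.083 and Cdk6 from -0.27 to 0.72. Ccnd1, Ccnd3, Ccne1, Cdk4 and Rb1 kept their direction under every alternative run. The count of members whose groups did not overlap was 6 in the main scaling and 5 with a common median. It was 4 with the mean of probe sets and 4 with plain probe sets. In the other lists a gene passed with group alone only when array 1 or array 2 without LIF was left out, or at a threshold of 0.1, at most 1 gene a list.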
